A study of Mus musculus with 16 samples.

Results

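The tropomyosin genes Tpm1, Tpm2, Tpm3 and Tpm4 were followed through a long-read survey of mouse cortex and striatum, in which every read was taken as 1 transcript molecule and assigned to an isoform. The members were all rows that carried 1 of these 4 gene names, with the count tables of a sample summed where it had 2. They made up 4 of 24960 annotated genes and 300 of 815498 isoform rows. The family was chosen by its gene reads and isoform shares over the 4 groups, so those values are given below as a description and carry no test.

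Poly(A) RNA came from 3-month-old male mice that were either non-transgenic (NT) or carried the R6/2 transgene, a fragment of the human HTT gene that expresses mutant exon 1 only and not the full-length protein, used as a rapidly progressing model of Huntington's disease. Cortex and striatum each had 4 NT and 4 R6/2 samples, which gave 16 samples in 4 groups (Cortex NT, Cortex R6/2, Striatum NT and Striatum R6/2). All groups shared a B6CBA background and the same library chemistry. Samples held between 252885 and 1496196 reads, and 4 of the 8 striatal samples (NT replicates 1 and 2, R6/2 replicates 2 and 3) came as 2 count tables, here called 2 runs. Each striatal genotype thus had 2 samples of 1 run and 2 of 2 runs, and all cortical samples had 1 run. The study's methods describe the samples as a subset of its biological replicates. Striatal projection neuron markers were all detected and their summed level was 10083 to 13839 CPM in Striatum NT against 376 to 469 CPM in Cortex NT, and the cortical excitatory neuron markers went the other way (0 to 46.6 CPM against 122 to 186 CPM). The 4 choroid plexus markers summed to 9209 CPM in Striatum NT replicate 3 and to 927, 1197 and 1550 CPM in Cortex NT replicate 4 and Cortex R6/2 replicates 2 and 3, against 6.48 to 318 CPM in the other samples.

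Tropomyosins are rod-shaped coiled-coil proteins that polymerize head to tail along both grooves of the actin filament and set which myosins, severing factors and crosslinkers can reach it. Each gene gives many isoforms. Transcripts that start at the distal exon 1a encode the long, high-molecular-weight tropomyosins, those that start at the internal exon 1b encode the short, low-molecular-weight ones, and a choice between exons 6a and 6b and among exons 9a to 9d sets the middle and the end of the protein. In neurons, Tpm1, Tpm3 and Tpm4 products sort to different compartments such as growth cones, axons, dendrites and synapses, whereas Tpm2 is best known from muscle.

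The isoform findings turn on the first and last exons of Tpm1, whose coding parts are printed from the GENCODE M21 transcripts on GRCm38 (mm10). In exons 1a and 1b the capitals mark the start codon, and in exons 9c and 9b they mark the last codon before the stop codon.
Tpm1 exon 1a, chr9:67049019-67049132, minus strand, 114 coding bases: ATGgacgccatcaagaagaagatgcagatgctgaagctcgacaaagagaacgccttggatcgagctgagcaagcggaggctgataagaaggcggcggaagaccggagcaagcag
Tpm1 exon 1b, chr9:67043578-67043709, minus strand, 132 coding bases: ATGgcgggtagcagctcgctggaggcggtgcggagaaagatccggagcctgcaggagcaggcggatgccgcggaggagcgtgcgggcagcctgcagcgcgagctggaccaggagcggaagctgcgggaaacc
Tpm1 exon 9c, chr9:67024495-67024565, minus strand, 71 coding bases: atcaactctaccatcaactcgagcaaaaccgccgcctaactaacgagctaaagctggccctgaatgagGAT
Tpm1 exon 9b, chr9:67028079-67028167, minus strand, 89 coding bases: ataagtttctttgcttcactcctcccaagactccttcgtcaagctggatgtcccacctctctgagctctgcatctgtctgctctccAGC
The internal first exons of the paralogs are shown beside them because nearly all known Tpm3 reads and the leading Tpm4 isoform start there.
Tpm3 exon 1b, chr3:90079732-90079863, plus strand, 132 coding bases: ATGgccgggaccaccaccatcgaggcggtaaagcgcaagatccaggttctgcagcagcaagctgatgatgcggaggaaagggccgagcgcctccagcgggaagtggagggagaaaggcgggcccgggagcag
Tpm4 exon 1b, chr8:72135322-72135453, plus strand, 132 coding bases: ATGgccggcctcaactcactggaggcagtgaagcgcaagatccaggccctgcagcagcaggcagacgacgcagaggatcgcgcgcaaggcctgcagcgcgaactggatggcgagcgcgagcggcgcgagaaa
The coding part of Tpm1 exon 1b was identical to that of Tpm3 at 84 of 132 aligned positions (63.6%) and to that of Tpm4 at 95 of 132 positions (72.0%). Exons 9c and 9b of Tpm1 were far less alike, with 38 identical bases over 89 aligned columns (42.7%). The gene copy annotated as Tpm3-rs7 took 5 reads over all samples.

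On GRCm38, Tpm1 (ENSMUSG00000032366) lies at chr9:67022590-67049406 on the minus strand, Tpm2 (ENSMUSG00000028464) at chr4:43514711-43523765 on the minus strand, Tpm3 (ENSMUSG00000027940) at chr3:90072649-90100902 on the plus strand and Tpm4 (ENSMUSG00000031799) at chr8:72134975-72153142 on the plus strand. Reads were sorted by the structure of the isoform to which they were assigned: known isoforms match the Ensembl annotation, incomplete splice matches (ISM) match part of a known chain, and NIC and NNC isoforms combine annotated splice sites in another way or use an unannotated site. Tpm1 gathered 2935 reads in 104 rows, of which 64.4% were known and 27.2% ISM. Tpm3 gathered 2906 reads in 142 rows, but 57.9% of these were NIC and only 27.1% known. Tpm4 had 353 reads in 29 rows, 86.7% of them known, and Tpm2 had 151 reads in 25 rows, 59.6% of them ISM. All 13, 2, 6 and 1 known isoforms of Tpm1, Tpm2, Tpm3 and Tpm4 with a read matched GENCODE M21 by identifier, exon number and length.

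**Figure D1:**
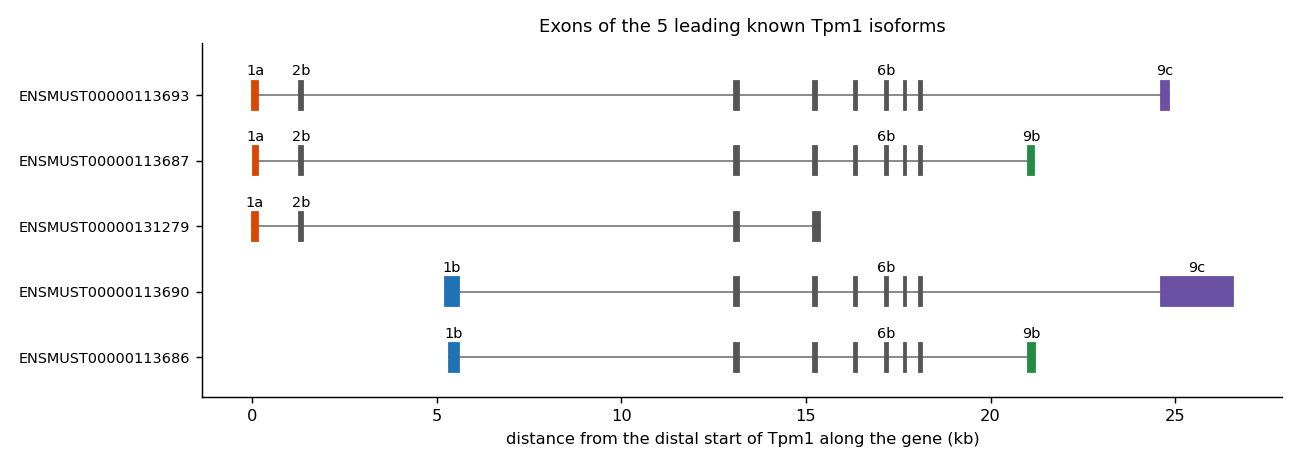
Exon maps of the 5 leading known Tpm1 isoforms, with the distance from the distal start along the gene (kb) on the x axis and 1 isoform per line. Orange exons are 1a, blue exons 1b, purple exons 9c and green exons 9b; isoforms of 9 exons start at 1a and those of 8 exons at 1b, and ENSMUST00000131279 ends after 4 exons.

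At the gene level, Tpm1 reads were fewer in R6/2 mice than in NT mice in both regions. In CPM, the reads of a gene as a rate over all gene reads of its library after TMM scaling, the Cortex NT samples had 386, 292, 293 and 278 CPM of Tpm1 and the Cortex R6/2 samples 231, 217, 205 and 201 CPM. Every Cortex R6/2 sample thus lay below every Cortex NT sample, with means of 312 ± 50.0 and 214 ± 13.6 CPM (SD, n = 4 each) and a fitted log2 difference of -0.53 ± 0.18 (SE). In the striatum the NT samples spread widely, at 290, 380, 519 and 842 CPM, and the R6/2 samples were close together at 244, 204, 188 and 231 CPM. The groups again did not overlap (507 ± 242 against 217 ± 25.2 CPM), and the log2 difference was -1.25 ± 0.37.

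Within Striatum NT, replicates 1 and 2, with 2 runs, had lower Tpm1 values than replicates 3 and 4, with 1 run. Within samples of 1 run, mean Tpm1 CPM in R6/2 striatum was 0.349 of that in NT, and within samples of 2 runs it was 0.586. Leaving out Striatum NT replicate 4 brought the log2 difference to its smallest value, -0.87. In bulk tissue, fewer cells of a type and less RNA per cell cannot be told apart.

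Tpm2 was the scarcest member, with 1 to 52 reads per sample. Its Striatum NT samples had 22.7, 40.4, 23.7 and 14.7 CPM and its Striatum R6/2 samples 7.30, 13.4, 7.09 and 9.44 CPM. These groups did not overlap, with a log2 difference of -1.54 ± 0.35, although Striatum NT replicate 4 held only 3 reads. Its cortical samples ranged from 4.61 to 13.5 CPM and overlapped between genotypes (log2 difference -0.42 ± 0.58, from the fit without a filter on low counts). Striatum NT lay above Cortex NT in every sample (log2 difference 1.66 ± 0.47, same fit). The summed markers of vascular smooth muscle and pericytes, cells rich in muscle tropomyosins, were 127 to 148 CPM in Striatum NT, 74.4 to 146 CPM in Striatum R6/2, 177 to 194 CPM in Cortex NT and 154 to 211 CPM in Cortex R6/2, with 0 of the 2 tested members of that list of 9 past the test in either genotype comparison. Their part in the Tpm2 values was not tested.

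Tpm3 and Tpm4, whose short isoforms are widespread in non-muscle cells, overlapped between all the groups compared. Tpm3 had 319 ± 88.3 CPM in Cortex NT, 340 ± 32.6 in Cortex R6/2, 199 ± 76.3 in Striatum NT and 278 ± 59.5 in Striatum R6/2 (n = 4 each). Its log2 difference between genotypes was 0.12 ± 0.20 in cortex and 0.46 ± 0.29 in striatum, where the lowest sample, Striatum NT replicate 4, had 19 reads and 93.0 CPM. Tpm4 lay between 31.4 and 39.5 CPM on average, with log2 differences of -0.10 ± 0.29 in cortex and -0.09 ± 0.32 in striatum.

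Tpm1 in cortex, and Tpm1 and Tpm2 in striatum, had R6/2 samples that did not overlap the NT samples, and these were lower. Over all genes tested the share without overlap was 10.1% in cortex (6.5% lower and 3.61% higher in R6/2) and 6.16% in striatum (4.36% lower and 1.8% higher), and since these levels chose the family nothing is read from the comparison. Between regions, Tpm2 alone did not overlap among NT mice (all genes: 16.2%, with 7.39% higher and 8.78% lower in striatum), and no member was without overlap among R6/2 mice (all genes: 21.2%, with 8.69% higher). These shares are over genes that passed the filter on low counts, and Tpm2 did not pass it. Its closest NT samples were Striatum NT replicate 4 (14.7 CPM, 3 reads) and Cortex NT replicate 1 (13.5 CPM, 5 reads). Ordered by mean level, Tpm1 ran from Striatum NT through Cortex NT and Striatum R6/2 to Cortex R6/2, and only Cortex NT and Striatum R6/2 were neighbours without overlap. Summed over the family, levels were 680 ± 63.9, 595 ± 33.5, 764 ± 152 and 536 ± 45.8 CPM in Cortex NT, Cortex R6/2, Striatum NT and Striatum R6/2. Within that sum, Tpm1 made up 63.9 ± 17.6% of family reads in Striatum NT and 40.9 ± 7.88% in Striatum R6/2, while Tpm3 made up 28.1 ± 14.2% and 51.5 ± 7.12%.

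A read was taken as 1 molecule whatever its length. Divided by the mean isoform length of each gene (1595 nt for Tpm1, 1619 for Tpm2, 2135 for Tpm3 and 2126 for Tpm4), the level in Striatum NT was 318 CPM per kb for Tpm1, 93.1 for Tpm3, 15.7 for Tpm2 and 15.1 for Tpm4. On that assumption CPM before division stands for molecules, and the divided values are given for comparison only. The assumption was not tested, since the cDNA was amplified without molecular identifiers and reads can be copies of 1 molecule. The order of Tpm1 and Tpm3 in the other groups depended on this division. In Cortex NT and Striatum R6/2, Tpm1 had 196 and 136 CPM per kb against 149 and 130 for Tpm3, but 312 and 217 CPM against 319 and 278 before division. In Cortex R6/2 Tpm3 was ahead on both scales (159 against 134 CPM per kb).

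**Figure D2:**
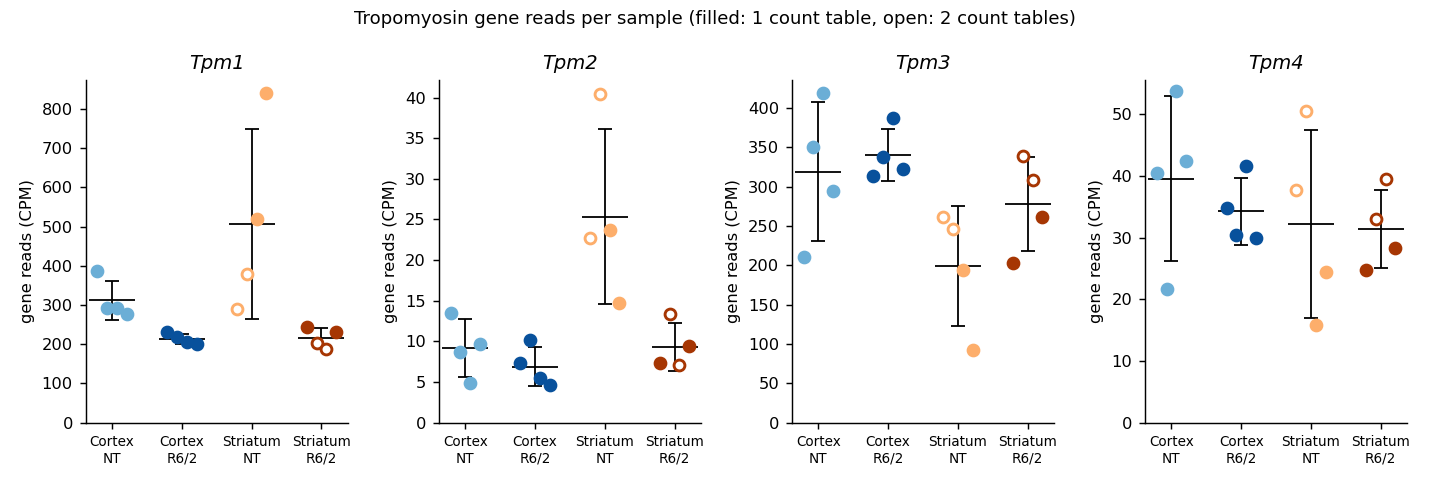
Gene reads of Tpm1, Tpm2, Tpm3 and Tpm4 in CPM (y axis, linear, from 0) for the 4 groups (x axis), with 1 point per sample, filled for 1 run and open for 2 runs, and bars for the mean and SD (n = 4). Tpm1 samples from R6/2 mice sit between 188 and 244 CPM, below all NT samples of their region, while the Tpm3 and Tpm4 groups overlap.

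Tpm1 also differed in which first exon it used. Among known Tpm1 reads, the share with the distal exon 1a was 72.4, 77.7, 87.6 and 87.7% in the 4 Striatum NT samples and 33.0, 29.6, 29.1 and 37.5% in the 4 Striatum R6/2 samples. The means were 81.4% ± 7.58 and 32.3% ± 3.88 (SD, n = 4), a difference of -49.1 percentage points. The 95% Wilson intervals of the single samples did not overlap either, the NT ones reaching down to 65.6% and the R6/2 ones up to 50.6%. Such intervals cover counting error only, because the cDNA was amplified without molecular identifiers.

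In cortex the distal exon was the minor choice in both genotypes. Its share was 32.9, 39.7, 22.5 and 31.0% in Cortex NT and 25.4, 21.7, 26.6 and 20% in Cortex R6/2. These ranges overlapped, with means of 31.5% ± 7.10 and 23.4% ± 3.09 (n = 4). Every Striatum NT sample lay above every cortical sample, whereas Striatum R6/2 overlapped Cortex NT and lay above Cortex R6/2 in every sample.

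In R6/2 striatum exon 1a reads were fewer and exon 1b reads more numerous. Exon 1a reads were at 169, 236, 312 and 455 CPM in Striatum NT and at 46.7, 43.3, 39.5 and 49.5 CPM in Striatum R6/2, a 6.55-fold difference of the means. Exon 1b reads were at 64.2, 67.6, 44.2 and 63.6 CPM in Striatum NT and at 94.9, 103, 96.2 and 82.6 CPM in Striatum R6/2, so that every R6/2 sample was higher, by 1.57-fold in the means. In cortex, exon 1a reads had means of 56.9 ± 10.9 CPM in NT and 29.4 ± 4.32 CPM in R6/2, without overlap (1.94-fold). Cortical exon 1b reads also lay lower in every R6/2 sample, but by less, at 125 ± 21.5 and 96.1 ± 4.04 CPM (1.30-fold).

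**Figure D3:**
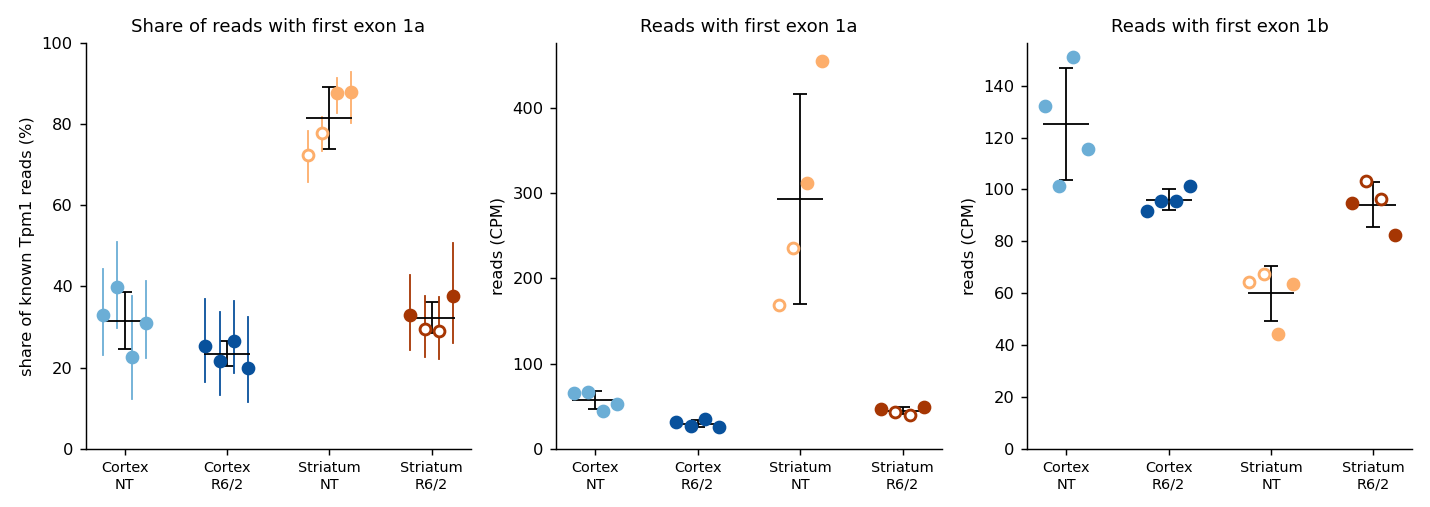
Share of known Tpm1 reads with the distal first exon 1a (left, %, thin bars: 95% Wilson interval of each sample) and CPM of reads with first exon 1a (middle) and 1b (right), for the 4 groups on the x axis, with 1 point per sample, filled for 1 run and open for 2 runs, and black bars for mean and SD (n = 4). The 4 Striatum NT samples sit at 72.4 to 87.7% and all other samples at 20 to 39.7%.

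The 2 first exons of Tpm1 were both without overlap between the genotypes in striatum, against 5.75% of 2381 first exons over all genes, and neither was in cortex (6.56% of 1768). Between the regions both were without overlap in NT mice (all genes: 8.95%) and in R6/2 mice (all genes: 8.52%). The rule used these shares, so nothing is read from these counts.

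The share also differed with the number of runs. Samples of 1 run had exon 1a shares of 87.6 and 87.7% in Striatum NT and 33.0 and 37.5% in Striatum R6/2, and samples of 2 runs had 72.4 and 77.7% against 29.6 and 29.1%. The genotypes did not overlap within either kind of sample. The separate runs of the 4 samples with 2 runs gave 63.0 and 79.8% for NT replicate 1, 78.6 and 76.8% for NT replicate 2, 26.9 and 32.0% for R6/2 replicate 2, and 32.7 and 27.1% for R6/2 replicate 3. Every R6/2 run was thus below every NT run.

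ENSMUST00000131279 is a 4-exon processed transcript that starts at exon 1a and stops in a lengthened exon 4, without an annotated coding sequence. It held 6.90 and 12.3% of complete Tpm1 reads (known, NIC and NNC) in the Striatum NT samples of 2 runs, and 37.6 and 47.3% in those of 1 run. In Striatum R6/2 it held 3.25 and 3.33% in the samples of 2 runs and 11.1 and 13.8% in those of 1 run. Among known reads of 8 or more exons, which leave this isoform out, the exon 1a share was 69.8, 74.3, 79.4 and 74.5% in Striatum NT and 22.6, 27.0, 26.4 and 25.5% in Striatum R6/2 (means 74.5% ± 3.92 and 25.4% ± 1.94). In Cortex NT it was 25.8, 29.9, 16.2 and 17.8%, and in Cortex R6/2 13.8, 14.5, 12.7 and 10.2%, so that on these longer chains the cortical groups did not overlap (22.4% ± 6.48 and 12.8% ± 1.90). Over all known reads they overlapped. The cortical values rest on 56 exon 1a reads of 243 in NT and 31 of 241 in R6/2. This setting was chosen after the data were seen, so nothing is read from that separation.

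Isoform by isoform, 6 Tpm1 isoforms passed the naming rule, at least 5% of the complete reads in a group and at least 10 reads in all, and together they held 92.0% of 2021 complete reads. ENSMUST00000113690 (exons 1b, 6b and 9c) was the leading isoform of both cortical groups, with 55.2% ± 6.41 in NT and 57.8% ± 5.22 in R6/2. It was only 11.4% ± 4.998 in Striatum NT, where the samples had 17.2, 13.8, 6.41 and 8.18%. In Striatum R6/2 it took 34.3, 43.5, 42.0 and 29.2% (mean 37.2% ± 6.71), above every NT sample.

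The named isoforms that join exon 1a to exon 9c or 9b went the other way. ENSMUST00000113693 (exons 1a, 2b, 6b and 9c) took 31.0, 33.4, 23.9 and 15.5% of complete reads in Striatum NT and 8.33, 9.74, 12.7 and 10.8% in Striatum R6/2. Its level was 89.1 ± 11.6 CPM in Striatum NT and 16.1 ± 2.53 CPM in Striatum R6/2. ENSMUST00000113687 (exons 1a, 2b, 6b and 9b) took 20.3% ± 3.15 in Striatum NT and 7.32% ± 0.918 in Striatum R6/2, with levels of 73.2 ± 16.7 and 11.4 ± 1.55 CPM. In cortex it was rare, at 4.47% ± 3.01 in NT and 2.10% ± 0.902 in R6/2, with 0 of 44 complete reads in Cortex NT replicate 3, which allows a share of up to 6.82% (3 of 44 reads; the 95% Wilson interval reaches 8.03%).

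The last named known isoform, ENSMUST00000113686 (exons 1b, 6b and 9b), took 5.18% ± 1.88 in Striatum NT and 19.3% ± 2.69 in Striatum R6/2 without overlap, with levels of 17.5 ± 2.26 and 30.0 ± 4.39 CPM. A NIC isoform of 9 exons, TALONT000649823, whose exon chain the tables do not give, had 2.54% ± 1.28 in Striatum NT and 8.29% ± 2.87 in Striatum R6/2, also without overlap. Of the 9 Tpm1 isoforms with at least 10 reads in the striatum, 5 did not overlap between genotypes, against 5.96% of 12723 isoforms over all genes, and of the 6 in cortex none did (5.94% of 8215). Between the regions 3 of 7 did not overlap in NT mice (all genes: 6.49%) and 3 of 7 in R6/2 mice (all genes: 6.46%).

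**Figure D4:**
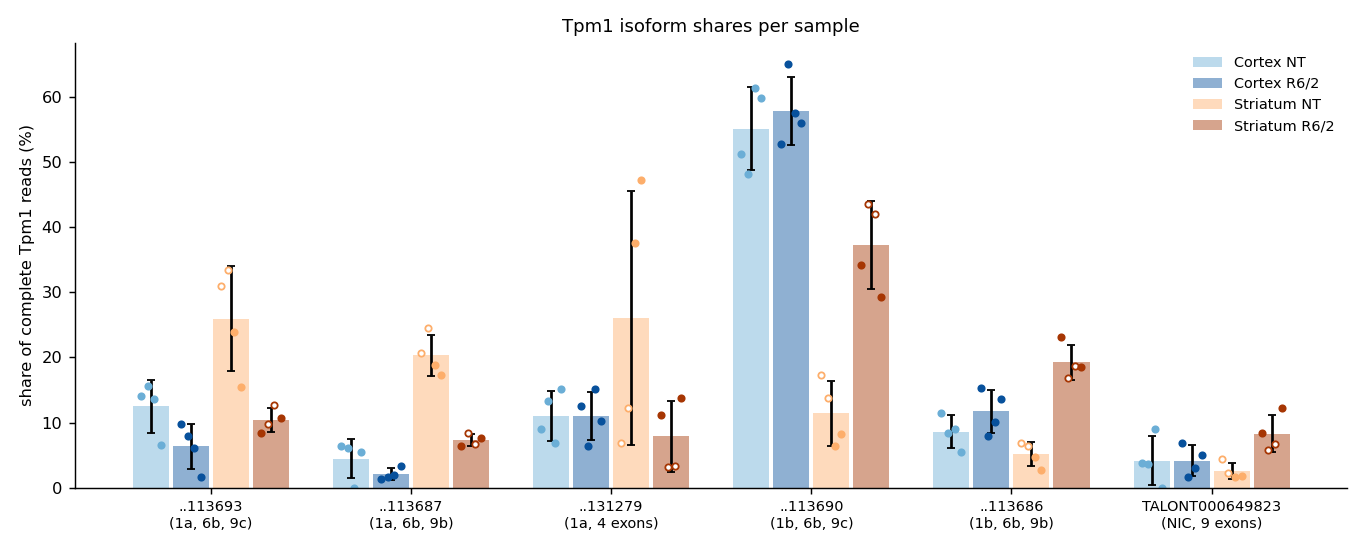
Share of complete Tpm1 reads (y axis, %, from 0) held by each of the 6 named isoforms (x axis, identifiers shortened), with bars for the group mean, black lines for the SD (n = 4) and points for samples, filled for 1 run and open for 2 runs. ENSMUST00000113690 leads in cortex at 55.2 and 57.8% and holds 11.4% in Striatum NT against 37.2% in Striatum R6/2, while ENSMUST00000113693 and ENSMUST00000113687 are highest in Striatum NT.

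In its last exon Tpm1 differed between the regions. Reads were grouped by the last exon of the transcript. The exon 9b group thus also held ENSMUST00000113685 (46 reads in all) and ENSMUST00000113684 (4 reads), which carry exon 9a before 9b. The first of these has 852 annotated coding bases against 861 for ENSMUST00000113687. A 9b share is therefore a share of transcripts and not of protein ends. Among known Tpm1 reads, exon 9b made up 30.7% ± 6.86 in Striatum NT and 32.3% ± 4.16 in Striatum R6/2, and 14.4% ± 4.71 and 15.9% ± 3.79 in Cortex NT and Cortex R6/2. Striatal samples were above all cortical samples of their genotype, and the genotypes overlapped within each region. Exon 9c, the end known from brain isoforms, made up 72.6% ± 6.67 in Cortex NT and 39.5% ± 13.7 in Striatum NT. The Striatum NT samples had 53.0 and 49.1% with 2 runs and 31.4 and 24.5% with 1 run. ENSMUST00000131279, which ends before exon 9, held 7.57, 12.8, 38.9 and 49.1% of known reads in Striatum NT replicates 1 to 4. In CPM, exon 9c reads overlapped between the regions in NT mice (133 ± 21.5 in cortex and 128 ± 15.5 in striatum). Within reads of 8 or more exons, 9c ended 86.4% ± 4.19 of exon 1b reads in Cortex NT and 63.9% ± 7.25 in Striatum NT. Of the same reads, 9b ended 29.9% ± 6.85 in Striatum NT and 33.9% ± 7.68 in Striatum R6/2 against 13.6% ± 4.19 in Cortex NT. Of exon 1a reads it ended 48.5% ± 4.59 and 41.2% ± 4.95 in striatum. As levels, exon 9c reads were lower in R6/2 than in NT samples in both regions without overlap, at 128 ± 15.5 and 74.0 ± 11.6 CPM in striatum, and exon 9b reads were lower in striatum, at 103 ± 13.9 and 44.8 ± 6.19 CPM. No last exon of Tpm1 was without overlap between the genotypes as a share in either region (all genes: 4.65% in cortex and 4.61% in striatum), whereas 2 of 4 were between the regions in NT mice (all genes: 6.22%) and in R6/2 mice (all genes: 8.21%).

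Known Tpm3 reads began almost without exception at exon 1b. It began all of the 131, 202 and 267 known reads in Cortex NT, Striatum NT and Striatum R6/2 and 186 of 188 in Cortex R6/2, and the known isoform with the distal exon 1a had 1 read in all. Its leading isoform was the NIC isoform TALONT000419434, of 8 exons and 2225 nt, with 1556 reads. It took 64.2% ± 9.23 of complete Tpm3 reads in Cortex NT, 65.4% ± 3.15 in Cortex R6/2, 54.4% ± 11.4 in Striatum NT and 61.0% ± 2.31 in Striatum R6/2, and overlapped between genotypes in both regions. The lowest sample was Striatum NT replicate 4, with 6 of 16 reads.

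The known isoforms of Tpm3 held smaller shares. ENSMUST00000029549 (exons 1b, 6a and 9d) took 16.99% ± 5.59, 19.4% ± 2.08, 23.9% ± 1.59 and 23.8% ± 4.26 in Cortex NT, Cortex R6/2, Striatum NT and Striatum R6/2, and was higher in every Striatum NT sample than in every Cortex NT sample. ENSMUST00000118566 (exons 1b, 6b, 9a and 9d) took 5.21, 6.67, 5.10 and 12.5% in Striatum NT and 4.39, 2.92, 1.71 and 2.86% in Striatum R6/2. The groups did not overlap, but the highest value rests on 2 of 16 reads and the whole isoform on 2 to 20 reads per striatal sample. In cortex it had 6.33% ± 1.52 in NT and 2.91% ± 1.54 in R6/2, with overlap. ENSMUST00000119158 (exons 1b, 6b and 9c) stayed between 4.97 and 5.88% on average. Of 5 Tpm3 isoforms with enough reads in striatum, 1 did not overlap between genotypes (all genes: 5.96%), and of 6 in cortex none did (all genes: 5.94%).

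**Figure D5:**
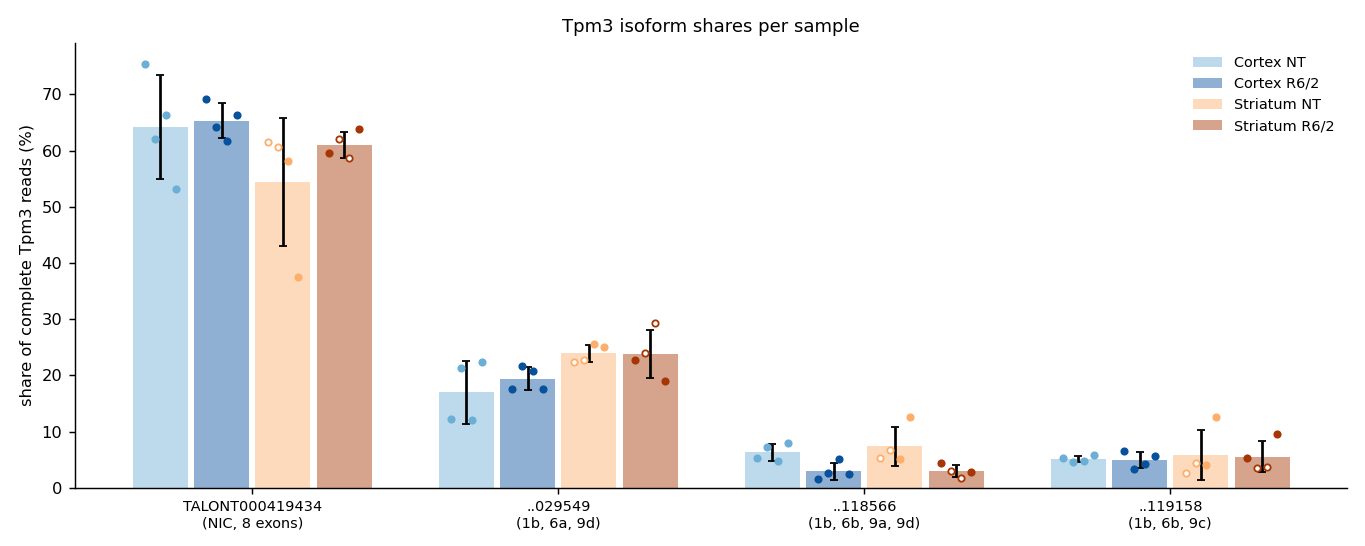
Share of complete Tpm3 reads (y axis, %, from 0) held by each of the 4 named isoforms (x axis), with bars for the group mean, black lines for the SD (n = 4) and points for samples, filled for 1 run and open for 2 runs. The NIC isoform of 8 exons holds 54.4 to 65.4% on average in all groups, and ENSMUST00000118566 is lower in R6/2 striatum (2.97%) than in NT striatum (7.37%).

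Tpm4 and Tpm2 showed little isoform diversity that could be read at this depth. ENSMUST00000003575 (exons 1b, 6b and 9d), the only known Tpm4 isoform with reads, held 95.6% ± 5.19, 92.8% ± 8.88, 93.8% ± 9.47 and 98.3% ± 3.33 of complete Tpm4 reads in the 4 groups in the same order. Tpm2 had 57 complete reads over all samples, and 3 cortical samples had none, so no share is compared. The Tpm2 isoform with most reads was an ISM one, the last 7 exons of a known chain, with 71 of the 151 reads, of which 31 were in Striatum NT replicate 2.

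Striatal projection neuron markers were also lower in R6/2 striatum. Their summed level was 10083 to 13839 CPM in Striatum NT and 1894 to 3258 CPM in Striatum R6/2, with none of the 9 at 0 in either group. By edgeR's quasi-likelihood test with Benjamini-Hochberg adjustment over all genes, 4 of 9 were lower in R6/2 striatum and none higher (all genes: 0.509% lower), with a median log2 difference of -2.16. In cortex their sum was 376 to 469 CPM in NT and 95.5 to 130 CPM in R6/2, and 2 of the 3 tested were lower (all genes: 2.81% lower). Oligodendrocyte markers ranged from 12799 to 29936 CPM in Striatum NT and from 12835 to 19038 in Striatum R6/2, with 0 of 6 past the test. Astrocyte markers (0 of 6 past the test) were at 401 to 1064 CPM and 462 to 787 CPM. Microglial and endothelial markers likewise had no member past the test in striatum, and the fibroblast list none tested. The part of these cell types in the Tpm1 levels and shares was not tested, and neither was that of choroid plexus RNA. The highest and the lowest choroid plexus libraries among Striatum NT, replicates 3 and 1 (9209 and 52.9 CPM), had exon 1a shares among reads of 8 or more exons of 79.4 and 69.8%. These also differ in run number (1 and 2), which this pair alone does not tell apart from choroid plexus RNA. Replicates 3 and 4, both of 1 run, had 79.4 and 74.5%, with the lower choroid plexus level in replicate 4. Replicates 1 and 2, both of 2 runs, had 69.8 and 74.3%, with the lower choroid plexus level in replicate 1.

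Genes that act with tropomyosin on actin had not been used to choose the family and were tested across all genes. Of 76 genes in 4 lists (pointed-end, side-binding and crosslinking proteins, actins, myosins, and assembly or severing factors), 45 could be tested in cortex and 50 in striatum. In cortex 1 was lower in R6/2 mice and none higher, against 3.27% of 6121 genes tested called in either direction and 2.81% called lower, and 6 had an unadjusted p under 0.05. That gene was Coro1a, which encodes coronin 1A, an actin-binding regulator of the Arp2/3 complex. It had 348, 248, 298 and 218 CPM in Cortex NT and 139, 175, 171 and 145 CPM in Cortex R6/2, without overlap (log2 difference -0.79 ± 0.19, edgeR adjusted p = 0.019). The call was lost when any 1 of the 4 Cortex R6/2 samples was left out (adjusted p = 0.079, 0.054, 0.066 and 0.071 for replicates 1 to 4) and on complete reads only (adjusted p = 0.084), and over all alternatives the adjusted p ranged from 0.0072 to 0.084.

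In striatum 1 partner was lower and none higher, against 0.509% of 7658 genes, and 7 had an unadjusted p under 0.05. It was Inf2, which encodes inverted formin 2, an actin nucleator and severing factor. Its samples were at 70.5, 87, 63.1 and 93.0 CPM in Striatum NT and at 16.1, 18.6, 18.2 and 21.2 CPM in Striatum R6/2 (log2 difference -2.08 ± 0.23, edgeR adjusted p = 0.0071). Without Striatum R6/2 replicate 1 or 2 its adjusted p was 0.064 or 0.060, while the difference stayed at -2.05 and -2.04, and over all alternatives its adjusted p ranged from 3.85e-09 to 0.064. On complete reads only it did not pass the filter on low counts. When the model also held a term for run number, 5 of 52 partners were called, all lower, against 4.18% of 8117 genes called in either direction under that model (3.71% lower). The median log2 difference of the tested partners was 0.05 in cortex and -0.11 in striatum, beside 0.01 and -0.01 over all genes.

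By list, none of the 13 side-binding and crosslinking proteins, 2 actins and 8 myosins tested in striatum passed the test, with medians of -0.23, -0.21 and -0.31, and 1 of 27 assembly and severing factors did, with a median of -0.05. In cortex the counts were 0 of 10, 0 of 3, 0 of 6 and 1 of 26, with medians of 0.03, -0.03, 0.20 and 0.06. On simulated counts with a log2 change of 1.5, the test recovered 42.1% of the changed genes in striatum and 97.8% in cortex. A list gene or marker not called in striatum is thus not shown to be unchanged.

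Listed splicing factors, whose action on tropomyosin exons was not examined here, were not called between the genotypes in the main edgeR fits. Of 25, edgeR tested 13 in cortex and 18 in striatum and called 0 in each, with 2 and 4 at an unadjusted p under 0.05. DESeq2 called 0 in cortex, against 4.47% of the 3985 genes with an adjusted p (3.84% lower), and 2 of 18 in striatum, against 2.44% of 7649 genes (2.25% lower). Those were Rbfox1 and Rbfox3, both lower and named here after their values were seen. With a term for run number, edgeR called the same 2 of 18 lower in striatum, against 4.18% of 8117 genes (3.71% lower).

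Between regions more partners were called. In NT mice 12 of 52 were called, 9 higher and 3 lower in striatum, against 14.9% of all genes tested (7.28% higher and 7.62% lower). In R6/2 mice 10 of 52 were called, 6 higher and 4 lower, against 11.4% (5.76% higher and 5.6% lower). Of the 9 partners higher in NT striatum, 6 had too few reads to be tested in cortex alone and so passed the filter on low counts through the striatal samples, as did 211 of the 538 genes called higher. Of the 3 lower there, 2 were not tested in striatum alone (107 of 563 genes called lower). In R6/2 mice 4 of the 6 higher were not tested in cortex alone (192 of 426 genes). Of the 4 lower, 2 were not tested in striatum alone (91 of 414 genes). These counts of called partners are therefore not read as a result. The 5 with the largest differences in NT mice were Nexn, Actn2, Pfn1, Fscn1 and Coro1a. The first 3 of these were not tested in cortex alone, so their values are given without a test. Nexn encodes the filament-binding protein nexilin and had 25.2, 21.7, 99.4 and 152 CPM in Striatum NT against 8.10, 2.16, 0 and 5.78 CPM in Cortex NT (log2 difference 3.80 ± 0.83). Actn2, an alpha-actinin that crosslinks filaments in dendritic spines, had a log2 difference of 3.39 ± 0.39, with 68.5 to 222 CPM in Striatum NT and 4.88 to 28.1 CPM in Cortex NT. Pfn1, profilin 1, differed by 2.55 ± 0.34, with 76.8 to 166 CPM against 13.0 to 27.0 CPM. Fscn1, the bundling protein fascin, was higher in striatum by 2.51 ± 0.43 (edgeR adjusted p = 0.00063), and Coro1a was lower, with a log2 difference of -2.02 ± 0.22 (edgeR adjusted p = 7.9e-06). Of the 14 splicing factors tested, 3 were higher in NT striatum (Celf1, Rbfox1 and Mbnl2, named after their values were seen) and none lower, and 1 was lower in R6/2 striatum than in R6/2 cortex (Rbfox2, likewise). Rbfox2 had a log2 difference of -1.05 ± 0.32 (edgeR adjusted p = 0.039) and was not called without a filter on low counts (adjusted p = 0.055), on complete reads (0.051) or on the first run only (0.21). Celf1 was not tested in cortex alone either, and on striatal samples of 1 run only it was not called (edgeR adjusted p = 0.114). The test of whether the genotype difference itself changed with region called 0 of 52 partners and 0 of 14 splicing factors by edgeR and by DESeq2, with 1 of each at an unadjusted p under 0.05, and 0.0135% of all genes.

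Several values in striatum moved with the number of runs, and they are given without a test. The share of ISM reads in Tpm1 was 17.5% ± 4.45 in the 4 samples of 2 runs and 33.5% ± 3.23 in the 4 samples of 1 run. Tpm4 had 40.2 ± 7.40 CPM in samples of 2 runs and 23.3 ± 5.33 CPM in samples of 1 run, and Tpm1 265 ± 88.3 and 459 ± 288 CPM. An exact permutation test of 4 against 4 samples over these and 5 other values cannot bring a single one past the threshold after adjustment, since its smallest p is 0.029, so its p-values are not used. Over all reads, the mean length of the assigned isoform lay between 2141 and 2225 nt for striatum with 2 runs and between 1618 and 1885 nt for striatum with 1 run, against 1851 to 2100 nt in cortex. The shortest was Striatum NT replicate 4, the sample with the highest Tpm1 level. The part of read length in the Tpm1 levels, in the exon 1a shares and in the share of ENSMUST00000131279 was not tested.

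Over the 16 samples, the tested genes whose log2 CPM ran most like that of Tpm1 were Ramp1, a co-receptor subunit for calcitonin-family peptides (Pearson r = 0.92), Ppp1r1a, an inhibitor of protein phosphatase 1 (r = 0.92), and Phactr1, a phosphatase and actin regulator (r = 0.91). Tpm3 was followed by Nelfb (r = 0.94), Sh3bp5l (r = 0.94) and Polr2m (r = 0.93), and Tpm4 by Mrpl3 (r = 0.85), Stx3 (r = 0.83) and Pex6 (r = 0.83). Tpm2 did not pass the filter on low counts over all samples. These are the top of a ranking over all tested genes, the points share their libraries, regions and run numbers, and no p is given.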

How the data were processed

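Long reads were aligned by the authors to mm10 with minimap2, corrected with TranscriptClean and assigned to Ensembl isoforms with TALON. The deposited values are whole-number read counts per isoform, not filtered by the authors, in 20 tables for 16 samples. Tables of 1 sample were summed. Gene reads were the known, ISM, NIC and NNC classes, and complete reads left out ISM.

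Counts were scaled by TMM and tested with edgeR 4.0.16 (quasi-likelihood, filter on low counts, Benjamini-Hochberg adjustment over all genes, threshold 0.05) in R 4.3.3. Each genotype comparison used the 8 samples of its region, and the region comparisons and the interaction used all 16. DESeq2 1.42.0 was an alternative. Log2 CPM values used a prior count of 2. Shares have 95% Wilson intervals. The code was tested on simulated counts with a log2 change of 1.5 set into chosen genes. The edgeR test recovered 97.8% of these genes in cortex and 42.1% in striatum, and 5.35 and 7.41% of the calls were false.

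The members and the gene, marker and splicing factor lists were chosen with earlier results of these data known. Isoforms were named from 5% of complete reads in a group and 10 reads in all, and list genes as the 5 largest differences per comparison among those called, with 20 reads on average and no overlap between groups. The 3 genes most like each member were ranked by Pearson's r of log2 CPM. NIC and NNC exon chains were not used here. The labels do not state whether same-numbered samples of the regions came from the same animal. Deviations of same-numbered samples had correlations of mixed sign (-0.57 to 0.66), so samples were not paired. Between the striatal genotypes these were 0.42 and 0.66 for replicates 2 and 4, alike in run number. They were -0.57 and -0.41 for replicates 1 and 3, which differ in it. Between the regions they ranged from -0.24 to 0.41, so shared animals remain possible. Exon sequences came from GENCODE M21 transcripts. Depth ran from 203081 to 1350502 gene reads per sample, and the reads of a member limit its precision.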

Additional observations from a re-analysis of the deposited data

Results flagged for a closer look

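Of 106 groups of 4 values examined, 8 had a single sample far from the other 3 by Dixon's criterion. Chance alone gives about 5% for independent and normally distributed values. Where 3 samples are tied at 0 or 100%, any differing sample is flagged, and many groups share reads. The count is therefore not compared with that rate. Tpm1 was at 386 CPM in Cortex NT replicate 1, with the others at 278 to 293. ENSMUST00000113687 had a share of 0% in Cortex NT replicate 3, with the others at 5.43 to 6.41%. In the same sample exon 9c ended 82.5% of known Tpm1 reads, with the others at 67.9 to 70.1%. TALONT000419434 held 37.5% of 16 complete Tpm3 reads in Striatum NT replicate 4, with the others at 58.2 to 61.5%. ENSMUST00000003575 held 93.3% of complete Tpm4 reads in Striatum R6/2 replicate 2, with the others at 100%. TALONT000280860, an NNC isoform of Tpm2, held 33.3% in Striatum R6/2 replicate 3, which is 1 of 3 reads, with the others at 0%. A lengthened exon 5 ended 1.67% of known Tpm1 reads in Cortex R6/2 replicate 2 and 1.03% in Striatum R6/2 replicate 1, 1 read each, with the other samples of those groups at 0%.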

How the results depend on the processing

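For known exon 1a reads as a share of all gene reads, the difference between the striatal genotypes was -38.0 points. ISM, NIC and NNC reads were in that denominator only, whatever exon they start at. The difference in the exon 1a share of known reads lay between -52.1 and -47.0 points with 1 sample left out. The corresponding ranges were -11.1 to -5.39 in cortex, 46.8 to 52.8 between regions in NT and 7.15 to 9.95 in R6/2. Between regions the difference was 40.3 points in NT with all gene reads as the denominator. In R6/2 it was 12.6 points on reads of 8 or more exons and 12.4 without ENSMUST00000131279. These settings were chosen after seeing the data, as were the fits on striatal samples of 1 run, where region log2 differences were -1.04 (NT) and -0.40 (R6/2) for Tpm4 and -0.55 (R6/2) for Tpm3. Tpm1 between regions in R6/2 was 0.20 on complete reads. With 1 sample left out, the log2 genotype difference of Tpm1 ranged from -0.60 to -0.41 in cortex and from -1.43 to -0.87 in striatum, of Tpm2 in striatum from -1.76 to -1.37, of Tpm3 from -0.03 to 0.25 and from 0.26 to 0.59, and of Tpm4 from -0.34 to 0.00 and from -0.30 to 0.25.

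Counts of called partners in cortex (1) were 2 without a filter, 2 with reads of the genomic class and 0 on complete reads, and 0 to 3 with 1 sample left out. Both counts of 2 were Coro1a and Inf2. In striatum (1) they were 0 on complete reads, 3 by DESeq2, 5 with a term for run number and 0 to 2 with 1 sample left out. Between regions they were 7 (NT) and 5 (R6/2) on complete reads, and in NT 18 without a filter. Splicing factors called were 0 to 1 in cortex with 1 sample left out, 2 in striatum by DESeq2 and 2 with the runs term. Between regions in R6/2, where 1 was called lower in striatum, they were 2 higher without a filter, 1 higher and 1 lower with upper-quartile scaling, with the genomic class and by DESeq2, 2 lower on 1-run samples, and 0 on complete reads. On the first run only, 1 was called, in the other direction (higher). The cause was not tested.

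The labels do not state whether sample numbers pair the samples. With a replicate block, called partners were 2 in cortex (Coro1a and Inf2) and 0 in striatum, where Inf2 had an edgeR adjusted p of 0.051. With a replicate block within genotype over both regions, a setting chosen after seeing the data, called partners were 9 (NT) and 8 (R6/2), Celf1 had an edgeR adjusted p of 0.054 in NT and Rbfox2 of 0.053 in R6/2, and 1 splicing factor was called higher in R6/2 striatum.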
